A study of Rattus norvegicus with 13 samples.

Results

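The 6 genes described here belong to the circadian clock and its output in rat liver: Nr1d1 and Nr1d2, Bmal1, Dbp, Tef and Klf9. They were chosen by measured values of these same arrays, namely the differences between the diet groups, and every probe set whose annotation names 1 of these genes alone was taken. A probe set is a group of short probes for 1 transcript. The rule found 10 probe sets of the 8740 on the array that are not controls, for 6 of 4736 genes. Nr1d1, Dbp, Bmal1 and Klf9 had 2 probe sets each, and Nr1d2 and Tef had 1. Of the 10 sets, 9 passed a filter that left out the 40% of sets with the lowest mean signal, and the dimmer Dbp set did not. Its geometric mean over the 13 arrays was 45.7 against a limit of 64.3. The dimmer Nr1d1 set, at 73.2, was the member set closest above that limit.

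The study measured liver RNA of Sprague Dawley females mated at a known time and kept on 4 diets, and, by its title, asked what ethanol changes in liver gene expression in gestation. EtOH-160 (n = 4) were undernourished rats given a daily 160 kcal per kg (to the power 0.75) and a daily 12 g ethanol per kg. TEN-160 (n = 3) were undernourished rats at that energy without ethanol. EtOH-220 (n = 3) had the same ethanol dose at 220 kcal, and TEN-220 (n = 3) were the controls at 220 kcal without ethanol. Energy supply and ethanol are the only differences that the labels give. The sources used here do not give the day of gestation, the time of day of collection, or how many animals stand behind an array. The p-values below thus cover the spread among these 13 samples and nothing beyond it.

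In mammals the clock is a loop of transcription factors. BMAL1 with its partner CLOCK activates genes through E-box sequences, among them Nr1d1, Nr1d2, Dbp, Tef and the Per genes. Nr1d1 and Nr1d2 encode REV-ERB-alpha and REV-ERB-beta, nuclear receptors that repress Bmal1 through elements they share with the ROR activators. Dbp and Tef encode PAR bZIP factors, which act at D-boxes on liver genes of detoxification and metabolism. Klf9 encodes a Kruppel-like factor that glucocorticoids and thyroid hormone induce. In liver most of these transcripts cycle over the day, with Bmal1 high when the Rev-erb and Dbp transcripts are low.

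The promoters that carry letters of this loop are shown, from RefSeq (GRCr8), each from 250 bases before to 50 bases after an annotated start. All 6 genes had such a window, and Nr1d1 had 2. Capitals mark an E-box (CACGTG) in Tef and in the second Nr1d1 window, and the core element that REV-ERB and ROR bind (AGGTCA) in Bmal1 and Nr1d2.
Bmal1, chr1:176766078-176766377, plus strand: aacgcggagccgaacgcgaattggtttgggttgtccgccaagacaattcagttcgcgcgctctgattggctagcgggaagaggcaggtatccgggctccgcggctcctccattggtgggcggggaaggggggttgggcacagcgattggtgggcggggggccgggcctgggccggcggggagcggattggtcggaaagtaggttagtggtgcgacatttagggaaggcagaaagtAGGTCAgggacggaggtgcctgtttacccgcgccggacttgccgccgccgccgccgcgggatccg
Nr1d2, chr15:9954784-9955083, plus strand: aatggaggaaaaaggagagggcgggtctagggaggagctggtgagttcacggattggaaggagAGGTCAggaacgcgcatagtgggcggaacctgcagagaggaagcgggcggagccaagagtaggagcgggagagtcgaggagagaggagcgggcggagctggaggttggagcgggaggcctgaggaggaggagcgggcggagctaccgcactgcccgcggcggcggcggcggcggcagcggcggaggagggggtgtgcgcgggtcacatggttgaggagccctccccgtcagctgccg
Nr1d1, chr10:84229405-84229704, minus strand: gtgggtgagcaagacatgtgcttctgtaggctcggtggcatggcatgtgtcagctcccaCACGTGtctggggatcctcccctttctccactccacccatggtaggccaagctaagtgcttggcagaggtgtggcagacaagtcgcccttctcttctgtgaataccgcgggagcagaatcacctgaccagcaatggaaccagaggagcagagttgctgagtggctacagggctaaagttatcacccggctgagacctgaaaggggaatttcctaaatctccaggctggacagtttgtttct
Tef, chr7:115206577-115206876, plus strand: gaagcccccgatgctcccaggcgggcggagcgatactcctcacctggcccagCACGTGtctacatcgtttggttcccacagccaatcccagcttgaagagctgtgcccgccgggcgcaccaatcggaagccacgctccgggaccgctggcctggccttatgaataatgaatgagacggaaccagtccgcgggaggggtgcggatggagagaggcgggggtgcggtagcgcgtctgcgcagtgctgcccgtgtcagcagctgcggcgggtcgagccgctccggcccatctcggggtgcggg
With the start base counted as 0, the Bmal1 core element lay at -15 to -10 and the Nr1d2 core element at -187 to -182. The E-box lay at -191 to -186 in Nr1d1 and at -198 to -193 in Tef. Both strands were searched, also for the D-box (TTANGTAA), the GC box (GGGCGG), which Kruppel-like factors bind, and the glucocorticoid response element. The GC box matched 5 times in Nr1d2, 2 times in Bmal1 and 1 time in Tef. No D-box or glucocorticoid element was in any of the windows, and the Dbp, Klf9 and other Nr1d1 windows held no match to any of the 5 motifs. Of 33469 promoter windows of this length, 6.42% held the E-box, 16.2% the core element, 33.1% the GC box, 2.24% the D-box and 0.439% the glucocorticoid element. These matches describe letters in a short window and no binding.

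The arrays give 1 signal per probe set on a linear scale, and the signals of TEN-220 replicate 1 were multiplied by 3.76 to bring its trimmed mean to that of the others. A signal up to 46.6 was taken as background (the 95th percentile of 19 controls whose sequences rats lack). Below it a level has only an upper bound. Where a group had such arrays and the group above it had none, the fold is given as at least the value with those arrays set to the background; fitted log2 changes take all signals as read. The 3 TEN-160 arrays stood apart: their first principal component scores were 30.5 to 41.6, against -13.8 to -2.63 on the other 10 arrays, and the ratio of the 5′ to the 3′ BioDn hybridisation control was 0.422 to 0.497, against 0.132 to 0.210. Both comparisons that use TEN-160 carry this. The 3′ to 5′ ratio of Gapdh, which reads RNA quality, was 1.50 to 1.73 in EtOH-160, 1.03 to 1.24 in TEN-160, 1.04 to 1.47 in EtOH-220 and 1.52 to 2.32 in TEN-220. The same ratio of beta-actin was 1.775 to 2.31, 1.91 to 2.96, 1.93 to 2.18 and 1.97 to 3.00 in these groups. Unlike the Gapdh ratio, it overlapped in all 4 comparisons. The 7 hepatocyte markers on the array were above background on every array. Neutrophil markers (3 of 5 on the array) summed to 112 to 333 in EtOH-160, 654 to 3462 in TEN-160, 208 to 409 in EtOH-220 and 411 to 2989 in TEN-220. Erythroid markers (3 of 5) summed to 5661 to 10305, 8912 to 19627, 11116 to 15212 and 8745 to 12248 in the same groups, with Epor below background on all arrays. Kupffer cell markers (4 of 9) summed to 2993 to 3976 in EtOH-160, 3458 to 5150 in TEN-160, 2607 to 4231 in EtOH-220 and 4328 to 4834 in TEN-220. In the same groups endothelial markers (5 of 8) summed to 747 to 968, 907 to 1542, 910 to 977 and 650 to 726, and stellate markers (6 of 7) to 1247 to 2200, 2084 to 4216, 1412 to 1823 and 1863 to 2004. Cholangiocyte markers (3 of 5) summed to 183 to 255, 166 to 228, 132 to 207 and 118 to 162, and lymphocyte markers (6 of 8) overlapped in all 4 comparisons. Above background on every array were 0 of the 3 cholangiocyte markers and 1 of the 3 neutrophil markers. The lymphocyte genes Cd3d and Cd2 and the stellate gene Des were below background on all arrays. In bulk tissue, fewer cells of a type and less RNA per cell cannot be told apart.

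The EtOH-160 livers had the highest Nr1d1, Dbp and Klf9 signals and the lowest Bmal1 signals of the 4 diet groups. Nr1d2 was high in both undernourished groups and near background in both groups at 220 kcal, and Tef moved little. Between EtOH-160 and EtOH-220, the changes of all 5 other genes had the sign opposite to that of Bmal1. Between EtOH-220 and TEN-220, the brighter Klf9 set was the only 1 of the 10 whose groups did not overlap, against 16.9% of all sets tested. The brighter Dbp set passed the filter only through EtOH-160, with a geometric mean of 436 there and 28.1 to 44.2 in the other groups. So did the dimmer Nr1d1 set, with 464 against 19.1 to 65.1. Nr1d2 passed only through the groups at 160 kcal (211 and 196, against 30.0 and 20.8). Because these differences chose the genes, all changes of the 6 genes between groups are descriptions, given with a standard error (SE) and without a test. The 4 comparisons share groups with each other, so their values are set side by side and not counted as separate evidence.

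**Figure D1:**
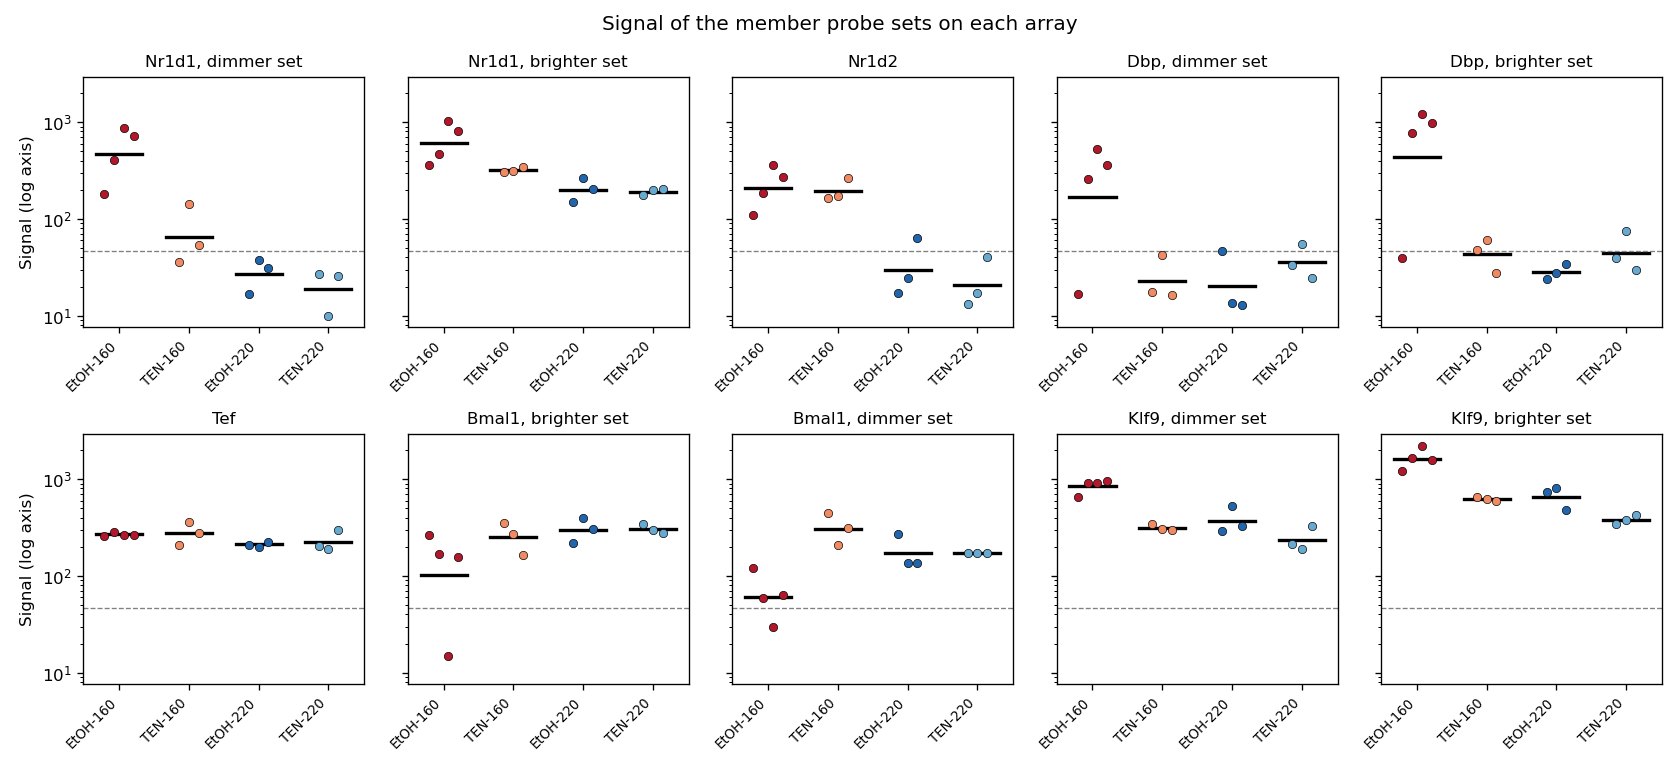
Signal of the 10 probe sets (log axis) on each of the 13 arrays, by diet group. Points are arrays, horizontal bars the geometric mean of a group, and the dashed line the background signal of 46.6. The 4 EtOH-160 arrays lie highest for Nr1d1 and Klf9 and lowest for the dimmer Bmal1 set, while 1 EtOH-160 array lies at the level of the other groups for Dbp.

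The REV-ERB gene Nr1d1 was highest in EtOH-160 on both of its probe sets. The brighter set read 358, 464, 1032 and 814 in EtOH-160, 303, 312 and 342 in TEN-160, 151, 265 and 203 in EtOH-220, and 175, 198 and 204 in TEN-220. Every EtOH-160 array was above every array of the other groups, and the TEN-160 arrays were above all arrays at 220 kcal. The log2 change was 1.60 ± 0.31 (SE) for EtOH-160 against EtOH-220 (3.04-fold) and 0.94 ± 0.31 for EtOH-160 against TEN-160 (1.92-fold). The change was 0.73 ± 0.33 for TEN-160 against TEN-220 (1.66-fold) and 0.07 ± 0.33 for EtOH-220 against TEN-220. The dimmer set read 182, 409, 869 and 718 in EtOH-160 and 35.9, 143 and 53.6 in TEN-160. It read 16.9, 37.6 and 30.8 in EtOH-220, and 26.7, 10 and 26.0 in TEN-220. All 6 arrays at 220 kcal were thus below background on this set, and 2 of the 3 TEN-160 arrays were above it. EtOH-160 was at least 9.95-fold higher than EtOH-220 and at least 6.54-fold higher than TEN-160. The 2 Nr1d1 sets followed each other over the 13 arrays (Pearson r = 0.932), and the smaller folds of the brighter set came with levels far above background in every group.

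Nr1d2, which encodes the other REV-ERB, was high in both groups at 160 kcal and low in both at 220 kcal. Its only set read 110.0, 184, 356 and 274 in EtOH-160, 165, 173 and 262 in TEN-160, 17.2, 24.8 and 63.2 in EtOH-220, and 13.2, 17.1 and 40.2 in TEN-220. The arrays at 160 kcal lay apart from the arrays at 220 kcal, of which 1, in EtOH-220, was above background. EtOH-160 was at least 4.09-fold higher than EtOH-220, and TEN-160 was at least 4.19-fold higher than TEN-220. At equal energy the groups overlapped, with a log2 change of 0.11 ± 0.51 for EtOH-160 against TEN-160. That SE leaves room for sizeable differences in either direction, and between EtOH-220 and TEN-220 the levels could not be compared, since 5 of 6 arrays were below background.

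Bmal1, the activator of the loop, was lowest in EtOH-160 on both sets, but the sets differed elsewhere. The brighter set read 267, 168, 14.9 and 157 in EtOH-160, 353, 269 and 164 in TEN-160, 219, 392 and 309 in EtOH-220, and 347, 295 and 276 in TEN-220. Replicate 3 of EtOH-160 was below background, while replicate 1 lay within the range of the other groups. The log2 change was -1.56 ± 0.71 for EtOH-160 against EtOH-220 and -1.30 ± 0.71 against TEN-160, and the groups overlapped in both. Without EtOH-160 replicate 3 these changes shrank to -0.64 and -0.38. The dimmer set read 121, 59.7, 30.0 and 64.0 in EtOH-160, 449, 210 and 313 in TEN-160, 268, 136 and 135 in EtOH-220, and 172, 172 and 173 in TEN-220. On this set every EtOH-160 array was below every other array, with changes of -1.48 ± 0.40 against EtOH-220 (at least 2.50-fold lower) and -2.34 ± 0.40 against TEN-160 (at least 4.53-fold lower). When each array of the 2 groups was left out in turn, these changes ranged over -1.81 to -1.14 and over -2.67 to -1.997. For TEN-160 against TEN-220 the sets disagreed in sign, with -0.29 ± 0.76 on the brighter and 0.84 ± 0.43 on the dimmer. For EtOH-220 against TEN-220 both were near 0, at -0.03 ± 0.76 and -0.02 ± 0.43. The correlation of the 2 Bmal1 sets over the arrays was 0.699, the lowest of the 4 genes with 2 sets.

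Dbp, a PAR bZIP factor and a standard readout of the clock in liver, was high in 3 of the 4 EtOH-160 arrays. The brighter set read 39.4, 773, 1206 and 985 in EtOH-160, 47.6, 60.9 and 27.9 in TEN-160, 23.7, 27.7 and 33.9 in EtOH-220, and 39.1, 74.8 and 29.5 in TEN-220. Replicate 1 of EtOH-160 was below background, as were 6 of the 9 arrays of the other groups. No fold is given, because both sides of the comparison hold arrays below background. The fitted log2 changes, which take those signals as read and so do not measure a size, were 3.95 ± 0.89 against EtOH-220 and 3.33 ± 0.89 against TEN-160, and 5.11 and 4.49 without EtOH-160 replicate 1. The groups overlapped in the comparison with TEN-160. The dimmer set gave the same picture, with 16.7 on EtOH-160 replicate 1, 258 to 529 on the other 3 EtOH-160 arrays and 12.9 to 55.4 on the 9 arrays of the other groups. Differences in Dbp among the other groups could not be measured, since most of those arrays were below background.

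Tef, the other PAR bZIP factor, varied least. Its signals were 256 to 285 in EtOH-160, 211 to 364 in TEN-160, 201 to 224 in EtOH-220 and 188 to 297 in TEN-220. The EtOH-160 arrays were all above the EtOH-220 arrays, by 0.35 ± 0.21 on the log2 scale (1.27-fold), and all other pairs of diets compared overlapped. Those changes were -0.04 ± 0.21 for EtOH-160 against TEN-160, 0.30 ± 0.22 for TEN-160 against TEN-220 and -0.09 ± 0.22 for EtOH-220 against TEN-220.

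Klf9, the hormone-induced Kruppel-like factor, had its highest signals in EtOH-160 and its lowest in TEN-220. The brighter set read 1202, 1641, 2218 and 1574 in EtOH-160, 658, 620.5 and 596 in TEN-160, 727, 806 and 482 in EtOH-220, and 347, 375 and 425 in TEN-220. The EtOH-160 arrays were above all others, the TEN-220 arrays below all others, and TEN-160 and EtOH-220 overlapped. The log2 change was 1.30 ± 0.21 for EtOH-160 against EtOH-220 (2.47-fold) and 1.38 ± 0.21 for EtOH-160 against TEN-160 (2.60-fold). It was 0.71 ± 0.23 for TEN-160 against TEN-220 (1.64-fold) and 0.78 ± 0.23 for EtOH-220 against TEN-220 (1.72-fold). The dimmer set read 658 to 964 in EtOH-160, 300.3 to 340.2 in TEN-160, 292 to 524 in EtOH-220 and 189 to 325 in TEN-220. Its changes in the same order of comparisons were 1.20 ± 0.24, 1.43 ± 0.24, 0.42 ± 0.25 and 0.65 ± 0.25, and the groups overlapped in the last pair of comparisons. On both sets all 4 signs were positive. Between EtOH-220 and TEN-220 the Gapdh ratios and the summed Kupffer cell, endothelial, stellate and neutrophil markers did not overlap either, and their part in the Klf9 difference was not tested.

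**Figure D2:**
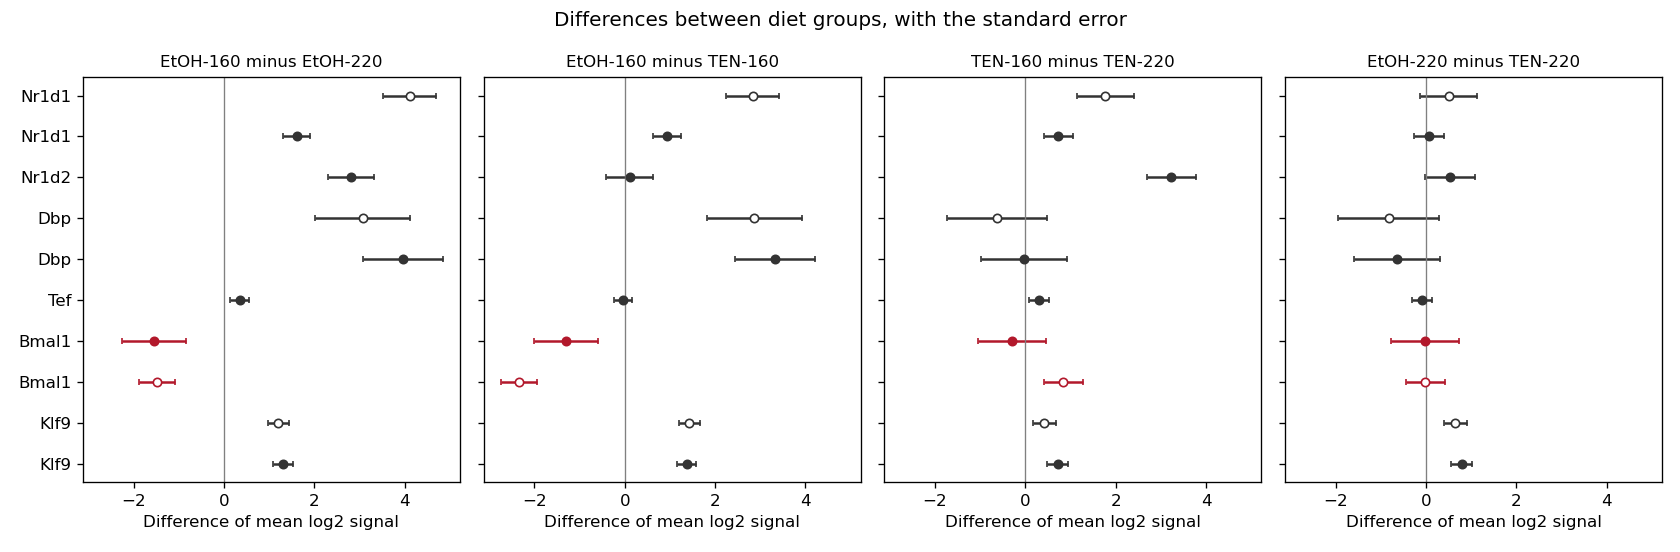
Difference of mean log2 signal in 4 comparisons, for each probe set. Points are differences, bars 1 SE of the model, filled points the brighter or only set of a gene, open points its dimmer set, and Bmal1 is in red. Signals under background enter as read, so the Dbp points show no measured size. Between EtOH-160 and EtOH-220 both Bmal1 points lie left of 0 and all others right of it.

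Between EtOH-160 and EtOH-220, with the brighter set of each gene, Bmal1 changed by -1.56 and the other 5 genes had a median change of 1.60, with Tef lowest at 0.35 and Dbp highest. Of the 10 sets, 7 were higher without overlap and 1, the dimmer Bmal1 set, was lower, where 10.3% of all 5244 sets tested had groups without overlap in either direction. Among the 7, the brighter Dbp set was kept apart only by signals below background, 39.4 on EtOH-160 replicate 1 against 33.9 on EtOH-220 replicate 3. The Gapdh ratios and the summed erythroid markers of EtOH-160 and EtOH-220 did not overlap either, and their part in these changes was not tested.

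Between EtOH-160 and TEN-160, 4 of the 5 other genes had the fitted sign opposite to Bmal1, with a median of 0.94. Nr1d2, counted among the 4, changed by 0.11 ± 0.51, and by -0.14 to 0.42 when each array was left out. Tef, the exception, changed by -0.04 ± 0.21, and by -0.24 to 0.16. Neither of these signs was thus settled. Here 4 of 10 member sets were higher and 1 lower without overlap, against 31.5% of all sets in either direction. The Gapdh ratios, BioDn ratios and summed neutrophil markers of EtOH-160 and TEN-160 did not overlap, and their part was not tested. Between TEN-160 and TEN-220, Nr1d1, Nr1d2, Tef and Klf9 had the sign opposite to the brighter Bmal1 set, and the sign of Dbp was not measurable. The fitted median of the 5 was 0.71. The dimmer Bmal1 set was higher in TEN-160, so this order turns with the set used. The change of the brighter Bmal1 set, -0.29 ± 0.76, ran from -0.54 to 0.02 when each array was left out. Here 5 of 10 sets were higher without overlap and 0 lower, against 37% of all sets. Among the 5, the dimmer Nr1d1 set was kept apart only by signals below background, 35.9 on TEN-160 replicate 1 against 26.7 on TEN-220 replicate 1. The Gapdh and BioDn ratios and the summed endothelial, stellate and cholangiocyte markers of TEN-160 and TEN-220 did not overlap, and their part was not tested. Between EtOH-220 and TEN-220 Bmal1 changed by -0.03 and the fitted median of the other 5 was 0.07. There Klf9 had a positive sign, and Nr1d2 and Dbp had no measurable sign. Nr1d1 (0.07 ± 0.33) ran from -0.13 to 0.27 when each array was left out, and Tef (-0.09 ± 0.22) from -0.22 to 0.11. The signs of Nr1d1 and Tef were thus not settled. Since these comparisons chose the genes, nothing is read from the genes' share beside that of all sets.

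Whether Bmal1 ran opposite to the others was also asked inside the groups, with the group means, whose differences chose the genes, removed. The deviations come from the same arrays, and the question was set with these arrays known. The p-values of this part thus cannot be called independent of the choice. Each array was set against the mean of its own group on the log2 scale, with the brighter set of each gene. Signals below background entered as read. For Dbp these were 1 EtOH-160, 1 TEN-160, 3 EtOH-220 and 2 TEN-220 arrays. For Nr1d2 they were 2 EtOH-220 and 3 TEN-220 arrays, and for Bmal1 EtOH-160 replicate 3. In a group with such arrays, the deviations of that gene do not measure a size. Over 13 arrays the deviations of Bmal1 and Nr1d1 had a Pearson r of -0.646 (exact permutation of arrays within groups, two-sided p = 0.185, adjusted over 15 pairs of genes 0.396) and a Spearman rho of -0.418 (exact p = 0.279, adjusted 0.681). For Klf9 r was -0.612 (exact p = 0.142) and rho -0.319 (exact p = 0.330). For Dbp r was -0.480 (exact p = 0.343) and rho 0.033 (exact p = 0.897), and for Nr1d2 r was -0.471 (exact p = 0.142) and rho -0.401 (exact p = 0.170). For Tef r was -0.098 (exact p = 0.564) and rho -0.170 (exact p = 0.535). No pair of the 15 passed, and the lowest adjusted p of r was 0.396. Without the 2 arrays with the largest Bmal1 deviations, EtOH-160 replicates 1 and 3, r was 0.183 for Nr1d1, 0.100 for Klf9, 0.449 for Dbp, -0.187 for Nr1d2 and -0.301 for Tef. The negative relations of Nr1d1, Klf9 and Dbp thus rested on those arrays. On the 9 arrays outside EtOH-160, Bmal1 and Nr1d1 had an r of 0.316 (exact p = 0.597). This last leave-out was chosen after the data were seen.

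**Figure D3:**
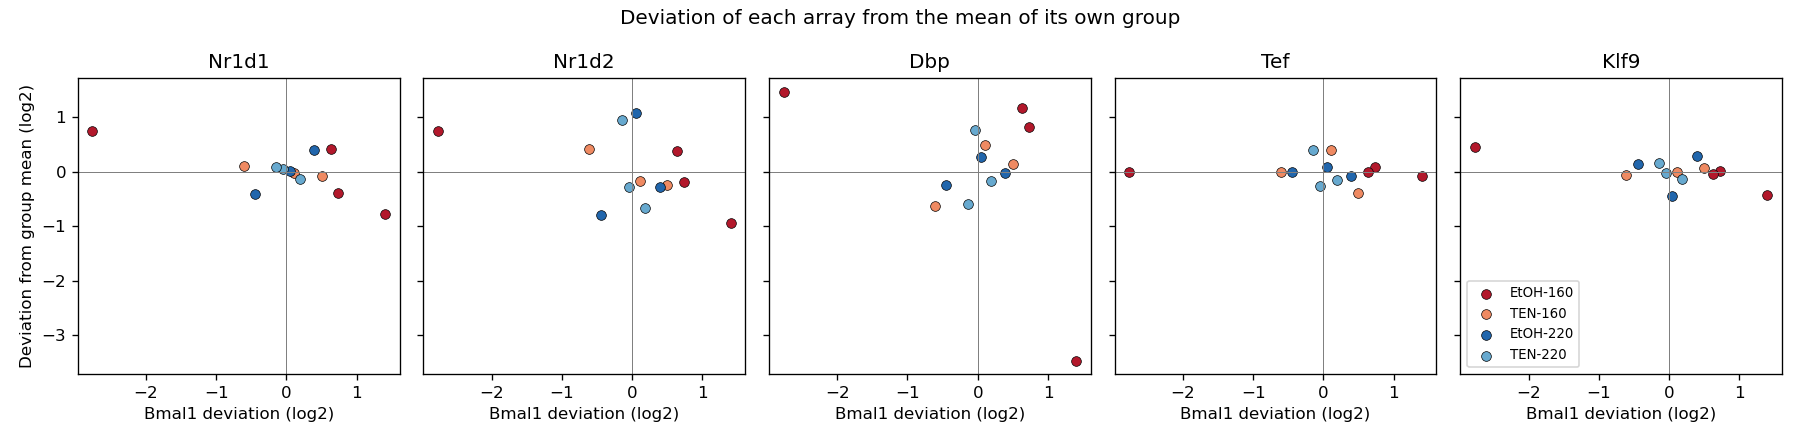
Deviation of each array from the mean of its own diet group (log2), for Bmal1 on the horizontal axis and the other 5 genes on the vertical axes, 13 arrays, brighter sets. EtOH-160 replicate 3 lies far left and replicate 1 far right in each panel. The arrays of the other groups lie nearer the centre on the horizontal axis, without a common slope. On the vertical axes of Nr1d2 and Tef some of them lie at least as far out as the EtOH-160 arrays.

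The 4 EtOH-160 arrays kept the same order on the sets of Nr1d1, Nr1d2 and Dbp, from replicate 1 as the lowest over 2 and 4 to 3. The brighter Bmal1 set had the reverse order, and Tef, both Klf9 sets and the dimmer Bmal1 set had other orders. Replicate 1 was the lowest of the 4 on 8 of 8 sets of the other genes and the highest on 2 of 2 Bmal1 sets. Over all sets tested it was the lowest on 24.0% and the highest on 22.8%. Replicate 3 was the highest on 6 of 8 sets of the other genes and the lowest on 2 of 2 Bmal1 sets, against 24.7% and 26.6% of all sets. Nr1d1, Dbp and Klf9 count here with 2 sets each, so the 8 sets are not 8 genes. On the brighter sets replicate 1 was 3.47 below its group mean for Dbp, 0.94 below for Nr1d2 and 1.40 above for Bmal1 (log2). Replicate 3 was 1.47 above for Dbp, 0.76 above for Nr1d1 and stood at -2.76 for Bmal1. The Dbp signal of replicate 1 and the Bmal1 signal of replicate 3 were below background. The Dbp and Bmal1 deviations thus show a direction and no measured size. The Gapdh ratio of replicate 1 was 1.65, within the 1.50 to 1.73 of the group, its first principal component score of -13.8 was the lowest of the 4, and its BioDn ratio of 0.177 was the highest. This order was noticed in the data and has no test.

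Genes outside the 6 were tested in limma, and called at an adjusted p under 0.05. Over all sets tested this called 0.21% between EtOH-160 and EtOH-220, 22.2% between EtOH-160 and TEN-160, 18.3% between TEN-160 and TEN-220, and 0.0191% between EtOH-220 and TEN-220, which was 1 of 5244. In that last comparison 542 sets had an unadjusted p under 0.05, and between EtOH-160 and EtOH-220 569 had. Of 20 other clock genes listed, 7 were on the array and 3 passed the filter. Of the 3, 1 rose between TEN-160 and TEN-220 and 0 fell, with 0 in the other 3 comparisons, and the list's median change was -0.45 against 0.04 for all genes. The gene was Hlf, the remaining PAR bZIP factor. Its brightest set read 113, 103, 126 and 109 in EtOH-160, 151, 150.2 and 188 in TEN-160, 116, 157 and 150 in EtOH-220, and 71.0, 62.1 and 96.0 in TEN-220. The TEN-160 arrays were above the TEN-220 arrays by 1.11 ± 0.24 (limma adjusted p = 0.0063), and a second Hlf set changed by 1.06 ± 0.53 (limma adjusted p = 0.179). Between EtOH-160 and TEN-160 Hlf changed by -0.53 ± 0.22 (limma adjusted p = 0.105). With the values as deposited 0 of the list passed between TEN-160 and TEN-220. There Hlf changed by more, 1.75, with an adjusted p of 0.0532, the highest of 23 alternatives, of which the lowest was 0.00159. With median-centred arrays 3 passed.

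Per2, a repressor of BMAL1 and CLOCK, failed the filter and is named after its values were seen. It read 6.1, 12.7, 54.5 and 6.8 in EtOH-160, 5.8, 14.9 and 23.3 in TEN-160, 171, 120 and 66.9 in EtOH-220, and 159, 217 and 126 in TEN-220. All arrays at 220 kcal were above background, and of the 7 at 160 kcal only EtOH-160 replicate 3 was. Per2 was at least 3.51-fold lower in TEN-160 than in TEN-220 (limma adjusted p = 0.00908 with no filter on low signals) and at least 2.29-fold lower in EtOH-160 than in EtOH-220 (limma adjusted p = 0.168). In both comparisons the groups did not overlap, and the direction was opposite to that of Nr1d2. The change was -0.56 ± 0.66 for EtOH-220 against TEN-220, and the levels of EtOH-160 and TEN-160 could not be compared. Timeless also failed the filter and fell between TEN-160 and TEN-220 (-2.41 ± 0.63, limma adjusted p = 0.0331 with no filter). It read 46.2 to 97.7 in TEN-220 and 4.1 to 44.7 on all other arrays, which were below background. Its levels in EtOH-160 and EtOH-220 could thus not be compared.

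**Figure D4:**
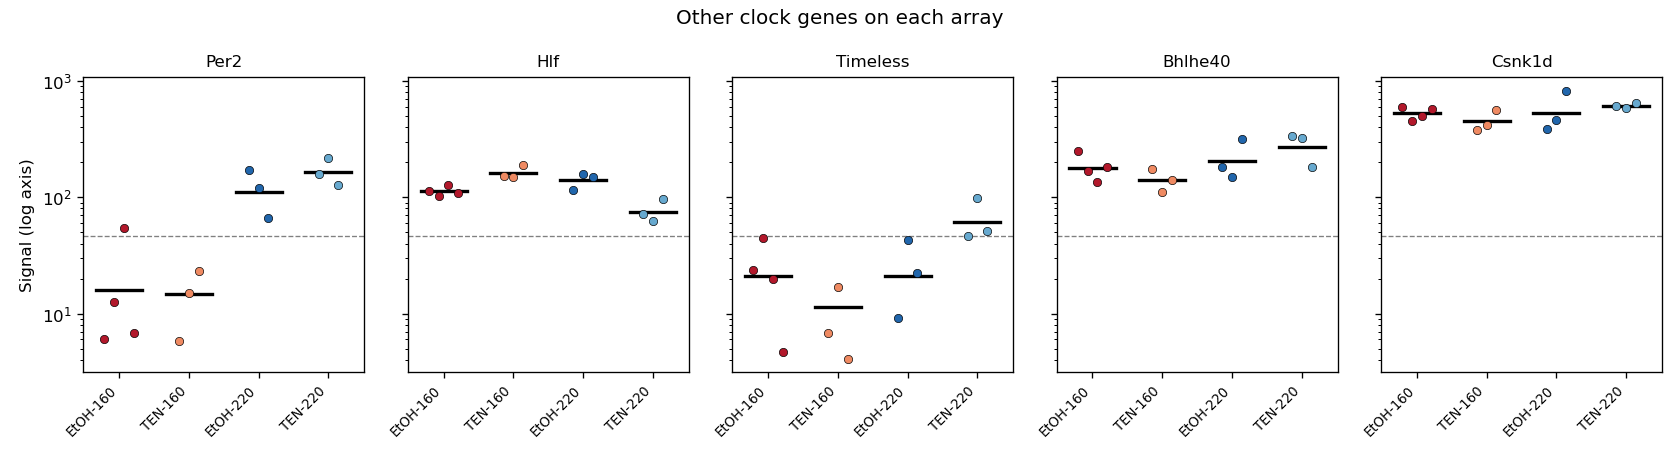
Signal (log axis) of 5 other clock genes on each array, by diet group; points, bars and the dashed line are as in the plot of the 10 probe sets, with bars computed after signals under 9.5 were set to 9.5. Per2 is below background on 6 of 7 arrays at 160 kcal and above it on all 6 at 220 kcal, and Hlf is lowest in TEN-220.

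Genes downstream of these factors were read from lists, each gene by its brightest set. Of 7 liver targets of DBP, TEF and HLF, 6 were tested. Between EtOH-160 and TEN-160, Por, the electron donor of cytochromes P450, rose by 0.77 ± 0.18 (limma adjusted p = 0.00816) and Cyp2c6v1, a P450, fell by 0.82 ± 0.15 on the log2 scale (limma adjusted p = 0.00232). The list's median was -0.02 there, against -0.05 for all genes. Cyp2c6v1 rose by 0.75 ± 0.16 between TEN-160 and TEN-220 (limma adjusted p = 0.00693), 1 of 6 in that comparison, but its adjusted p was 0.0677 with quantile normalization, the highest of 23 alternatives, of which the lowest was 0.00179. Other Por sets changed by 0.50 ± 0.23 and -0.40 ± 0.29 between EtOH-160 and TEN-160, so its 3 sets did not all have the same sign. In the comparison of EtOH-160 with EtOH-220, 0 of 6 targets passed and 1 of 6 changes was positive. The median was -0.18, against -0.01 for all genes. Between EtOH-220 and TEN-220, 0 of 6 passed and 6 of 6 were positive, with a median of 0.23 against -0.02. Over all sets 0.21% and 0.0191% were called in these comparisons. A count of 0 was thus nearly fixed beforehand, and nothing is read from it.

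Of 11 genes that REV-ERB represses, 3 were tested: Apoa1 and Apoc3, which encode apolipoproteins, and Pck1, the gluconeogenic enzyme. Between TEN-160 and TEN-220, where Nr1d2 was at least 4.19-fold higher, Pck1 rose by 2.48 ± 0.63 (limma adjusted p = 0.015) and the others did not pass. Leaving out TEN-220 replicate 1 gave 1.83 for Pck1 (limma adjusted p = 0.074), leaving out TEN-220 replicate 2 gave 0.0504 and leaving out TEN-160 replicate 3 gave 0.0569 as the adjusted p, in a range of 3.8e-07 to 0.074 over 23 alternatives. In the other 3 comparisons, which called 0.0191% to 22.2% of all sets, 0 of 3 passed. A second Apoa1 set did pass between TEN-160 and TEN-220, at 0.84 ± 0.26 (limma adjusted p = 0.0405). That set also passed between EtOH-160 and TEN-160, in the other direction, at -0.89 ± 0.25 (limma adjusted p = 0.0195).

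Among genes that respond to glucocorticoids, as Klf9 does, 11 of 20 were tested, and Pck1 is shared with the list before. Between EtOH-160 and TEN-160, 3 of 11 rose and 0 fell, where 22.2% of all sets were called, with a median of 0.53 against -0.05 for all genes: Cebpb by 0.68 ± 0.14 (limma adjusted p = 0.00429), Cebpd by 0.94 ± 0.22 (0.00836) and Dusp1 by 1.80 ± 0.41 (0.00729). The first encode CCAAT-enhancer binding proteins, and Dusp1 encodes a phosphatase of MAP kinases. Other Dusp1 sets changed by 0.81 ± 0.45 and -0.70 ± 0.45, another Cebpd set by -0.69 ± 0.36 and another Cebpb set by 1.50 ± 0.29. Between TEN-160 and TEN-220, where 18.3% of all sets were called, 2 rose, Pck1 and Igfbp1, an insulin-repressed binding protein of IGFs (3.17 ± 0.59, limma adjusted p = 0.00257). In that comparison 3 fell, while Klf9 was higher in TEN-160: Cebpb fell by 1.25 ± 0.15 (limma adjusted p = 0.000238), Dusp1 fell by 2.36 ± 0.44 (0.00273) and Cebpd fell by 0.72 ± 0.24 (0.0479) on the log2 scale. Cebpd is named here to complete that count, after its values were seen. In TEN-160 against TEN-220 the other Dusp1 sets changed by -1.37 ± 0.48 and -0.13 ± 0.48. Another Cebpd set changed by 0.11 ± 0.39 and another Cebpb set by -1.82 ± 0.31. A second set of Nr3c1, of the same list, passed there at 1.46 ± 0.30 (limma adjusted p = 0.00454). It also passed between EtOH-160 and TEN-160, at -1.20 ± 0.28 (limma adjusted p = 0.00775), while the brightest Nr3c1 set did not pass. Between EtOH-160 and EtOH-220, 0 of 11 passed, 10 of 11 changes were positive and the median was 0.20. Between EtOH-220 and TEN-220, 0 of 11 passed, 9 of 11 were positive and the median was 0.16. With the values as deposited, where TEN-220 replicate 1 is not scaled, Cebpb (adjusted p = 0.704), Cebpd (0.511), Cyp2c6v1 (0.542) and Por (0.637) lost their calls between EtOH-160 and TEN-160. Their changes were the same as before, since neither group holds that array, and only the p moved. All calls in this and the lists before fell in comparisons with TEN-160, whose arrays stood apart, and the part of that in the calls was not tested. The comparisons without TEN-160 called 0.21% and 0.0191% of all sets, so the counts of 0 there were nearly fixed beforehand.

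Of 12 thyroid hormone signalling genes 7 were tested, and of 14 other Kruppel-like and SP factors 2. Of these, 0 passed in limma in any of the 4 comparisons, which called 0.0191% to 22.2% of all sets. The medians of these lists between EtOH-160 and EtOH-220 were -0.03 and 0.39. Sets of Thra, the thyroid hormone receptor alpha, other than its brightest passed in both directions between EtOH-160 and TEN-160, at 0.99 ± 0.34 (limma adjusted p = 0.0467) and -1.60 ± 0.50 (limma adjusted p = 0.0334).

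The sets most like each gene over the 13 arrays were named by Pearson r on log2 signal, as a description, since all points share the 4 diet groups and their arrays. Nearest to Klf9 were 2 sets of Sds (0.972 and 0.923), serine dehydratase, with Asl (0.953), a urea cycle enzyme, and Gnmt (0.916), glycine N-methyltransferase. Nearest to Nr1d1 were Gch1 (0.922), Car5a (0.900), Sds (0.885) and Dglucy (0.877). Dbp was nearest to Hsd17b2 (0.954), Aopep (0.910), Got1 (0.884) and RT1-S3 (0.859), and Nr1d2 to Ctsl (0.934), Fam216a (0.930), Plpp1 (0.897) and RT1-S3 (0.887). Tef was nearest to RT1-M5 (0.882), Nr3c2 (0.843), Scnn1a (0.836) and Dll3 (0.826). Bmal1 was nearest to RT1-DMb (0.863), Casp2 (0.861), Rgn (0.856) and Sod1 (0.832). Most opposite to Bmal1 were Gnmt (-0.822), Bckdha (-0.789), Gde1 (-0.777) and Pcca (-0.771), so Gnmt stood both near Klf9 and opposite Bmal1.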

How the data were processed

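Hepatic RNA of 13 samples was hybridised to 1 one-colour Affymetrix rat array each. The authors deposited intensity values (MAS5 signals, per the submitters' processing notes, with no version named), on a linear scale. The 2%-trimmed mean was about 501 on 12 arrays and 133 on TEN-220 replicate 1, which was multiplied by 3.76. Quantile normalization of all arrays was an alternative. Signals under the 10th percentile (9.5) were set to it and log2 was taken. The 40% of the 8740 probe sets with the lowest mean were left out, and 5244 were tested.

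The means of the 4 groups were estimated in limma 3.58.1 (lmFit, then eBayes with trend = TRUE) under R 4.3.3. Tests were two-sided, adjusted after Benjamini and Hochberg over all sets tested, and called under an adjusted p of 0.05. Within-group correlations used exact permutations of arrays within groups (5184) in Python 3.11.15 with scipy 1.17.1. At-least folds set arrays below background to the background signal. The procedure was tested on simulated data. Precision is limited by the number of arrays.

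The 6 genes and the gene lists were chosen with earlier results of these data known. Named are the 6 genes on all their sets, up to 4 called genes of each list by smallest p, and the 4 sets of other genes with the highest correlation to each gene, with the 4 lowest for Bmal1. A list gene counts by its brightest set. Genes were named from the platform annotation, in which 7006 probe sets name 1 gene, 308 several and 1426 none. Alternatives were other normalizations, floors and variance models, no filter, gene means, a replicate block, fits to 2 groups and each array left out.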

Additional observations from a re-analysis of the deposited data

Results flagged for a closer look

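Dbp on its brighter set had 1 EtOH-160 array far from the rest of its group. Replicate 1 read 39.4, against 773 to 1206 on the other 3, and its gap to the nearest was 0.87 of the group's range on the log2 scale. Klf9 on its dimmer set had the same array apart, with 658 against 909 to 964 and a gap of 0.846 of the range. Chance alone passes this limit in about 1 in 20 groups, and both cases come from the same array.

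Bmal1 on its dimmer set had an ethanol effect that differed with the energy supply. EtOH-160 minus TEN-160 was -2.34 and EtOH-220 minus TEN-220 was -0.02, a difference of -2.32 ± 0.59 (SE) on the log2 scale. Since such differences chose the genes, this is a description; over all sets 7.7% had a difference at an adjusted p under 0.05. The brighter Bmal1 set gave -1.27 ± 1.03 for the same difference, and the TEN-160 arrays that stood apart enter both values. Their part was not tested.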

How the results depend on the processing

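Recomputed under the alternatives, the counts, medians, Bmal1 changes and the within-group r stayed within 1.5 times, 1 SD or the same side of the threshold in 226 cases, moved in 21 and reversed in 1. The cause of a move was not tested unless stated. The count of other clock genes called between TEN-160 and TEN-220 was 1; it was 2 with quantile normalization and with array weights, 3 with median-centred arrays and without the filter, and 0 with the values as deposited and with gene means, and 1 to 2 when each array was left out (2 without replicate 3 of either 220 kcal group). Between EtOH-220 and TEN-220 it was 0, and 1 with array weights. The within-group r of Bmal1 and Nr1d1 was -0.646, and 0.316 without the 4 EtOH-160 arrays. It was -0.084 with the values as deposited. With each array left out it ran from -0.787 to -0.174, the latter without EtOH-160 replicate 3. These values count as unmoved only because the adjusted p passed in no setting, so the size of r was not stable. At an adjusted p under 0.05, the ethanol effect differed between energy supplies in 7.7% of all sets and in 1 set of the 6 genes, a count that uses the values that chose the genes and supports nothing; it was 2 with median-centred arrays and the values as deposited, 0 without the filter, and 0 to 2 when each array was left out (0 without replicate 1 or 2 of TEN-220, 1 of EtOH-220, or 1 or 3 of TEN-160; 2 without replicate 1 of EtOH-160). The median change of the 5 genes other than Bmal1 was 0.70 between EtOH-220 and TEN-220 and 1.35 between TEN-160 and TEN-220 with the values as deposited, where TEN-220 replicate 1 is not scaled, against 0.07 and 0.71. With gene means it was 2.81 between EtOH-160 and EtOH-220, against 1.60. With the values as deposited, Cebpb also lost its call between TEN-160 and TEN-220 (adjusted p = 0.426).

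The replicate numbers did not pair the arrays: deviations of same-numbered arrays correlated at -0.105 to 0.091, and of others at -0.154 to 0.190. With a replicate block, Bmal1 changed by -1.77 between EtOH-160 and EtOH-220, against -1.56, and no call of a named gene was lost. Signals under background limit the folds of Nr1d2, Bmal1 in EtOH-160 and the dimmer Nr1d1 set to bounds and leave Dbp without a fold, and 3 to 4 arrays a group limit the rest.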
